A study of Mus musculus with 12 samples.

Results

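Cdh16, Calb1, Pax2, Pax8 and Emx2 are 5 genes linked to the mesonephros and its ducts, and this account follows their RNA in male genital ridges of mouse embryos. A gene was measured where the platform annotation ties a probe set, a group of array probes with 1 summary value, to that gene alone. This held for 4 of the 5 genes, through 8 of the 45037 probe sets tested: 4 for Calb1, 2 for Pax8, 1 for Cdh16 and 1 for Emx2. Pax2 was not analysed here. Where a gene had several probe sets, the one with the highest mean over the 12 arrays stood for it, and the others served as a check.

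The strain called 129 here is 129/Sv, and M19 is 129.MOLF-Chr 19, a strain on the 129 background whose chromosome 19 comes from MOLF. Both were sampled at E13.5, E15.5 and E17.5, counted in days of embryonic development, which gives 6 groups of 2 Affymetrix arrays. All embryos were male, and the labels call the tissue both genital ridges and testis. The labels state that each 2 arrays used pooled RNA of 40 pairs of testes. The 2 arrays of a group may thus share a pool, and p-values would then reflect technical spread. A whole-tissue sample also cannot tell apart fewer cells of a type from less RNA per cell.

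The mesonephros is the transient embryonic kidney beside the gonad. Its Wolffian duct becomes the epididymis and vas deferens in males, while the Müllerian duct regresses. Pax2 and Pax8 are paired-box transcription factors that specify the nephric lineage, and Emx2 is a homeobox transcription factor needed for the kidney, the ducts and the gonad. Cdh16 encodes Ksp-cadherin, an adhesion protein of tubular and duct epithelium. Calb1 encodes calbindin-D28k, a calcium-binding protein of renal tubules.

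On the deposited scale, taken as log2 signal, array medians lay between 8.1 and 8.27. Summed levels of the marker lists were 13.37 to 14.42 for Sertoli cells, 12.95 to 13.97 for germ cells and 13 to 15.34 for fetal Leydig cells, and no marker was at 0. The 129 arrays at E15.5 stood apart in 3 other lists. Their summed level of epidermis markers was 13.28 on both arrays against 10.81 to 11.4 elsewhere, and 6 of 7 of these markers were called lower in M19 at E15.5. For skeletal muscle it was 12.01 to 12.07 against 9.99 to 10.43, with 4 of 5 called lower in M19. For cartilage it was 11.28 to 11.38 against 9.94 to 10.53, with 2 of 4 called lower in M19. Of all genes, 0.682% were called between the strains at E15.5, in either direction. In addition, the 18S control signal was 9.689 on replicate 1 of 129 at E13.5 and 6.883 to 8.379 on the other arrays. The kidney tubule and glomerulus list had a summed level of 12.13 to 12.63. Adrenal cortex and chromaffin cell markers had one of 12.13 to 12.84. Of 8 measured, 1 was called higher in M19 at E17.5, where 0.0934% of all genes were called in either direction. From E13.5 to E15.5, 3 were called higher in 129 and 2 in M19, against 4.46% and 5.74% of all genes.

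Cdh16, Calb1 and Emx2, 3 of the 4 measured genes, fell between E13.5 and E15.5, the early step, in both strains. Differences were tested with limma and called at an adjusted p under 0.05. Among 18193 genes, 1.84% were called lower in this step in 129 and 1.66% in M19. From E15.5 to E17.5, the late step, only Emx2 of the 4 was called, lower in each strain, where 1.24% of genes were called lower in 129 and 1.79% in M19. Pax8 was called in no comparison. Averaged over strains, the same 3 genes were called lower in the early step and over the span from E13.5 to E17.5, and Emx2 in the late step. In these averaged comparisons 4.52%, 10.9% and 4.58% of all genes were called lower.

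Markers of other cell types also changed in the early step, where 4.46% of all genes were called higher in 129 and 5.74% in M19. The shares of all genes called lower were 1.84% and 1.66%. Fetal Leydig cell markers were called higher in 4 of 4 in both strains, with a median log2 difference of 1.54 in 129 and 2.03 in M19, and their summed level was 13 to 13.34 at E13.5 and 14.75 to 14.88 at E15.5. Germ cell markers were called higher in 2 of 4 in 129 and 3 of 4 in M19, with medians of 0.6 and 1.1, and their summed level was 13.1 to 13.3 at E13.5 and higher on all 4 arrays at E15.5, up to 13.97. Sertoli cell markers had 1 of 6 called higher and 1 lower in each strain. Of 4 coelomic surface markers, Upk3b, a uroplakin gene of the surface, fell in both strains (-1.04 and -0.77, ± 0.12 each, limma adjusted p = 0.00055 and 0.0037), and the list's summed level lay between 11.97 and 12.32 on all arrays. The part of these markers in the falls of Cdh16, Calb1 and Emx2 was not tested.

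**Figure D1:**
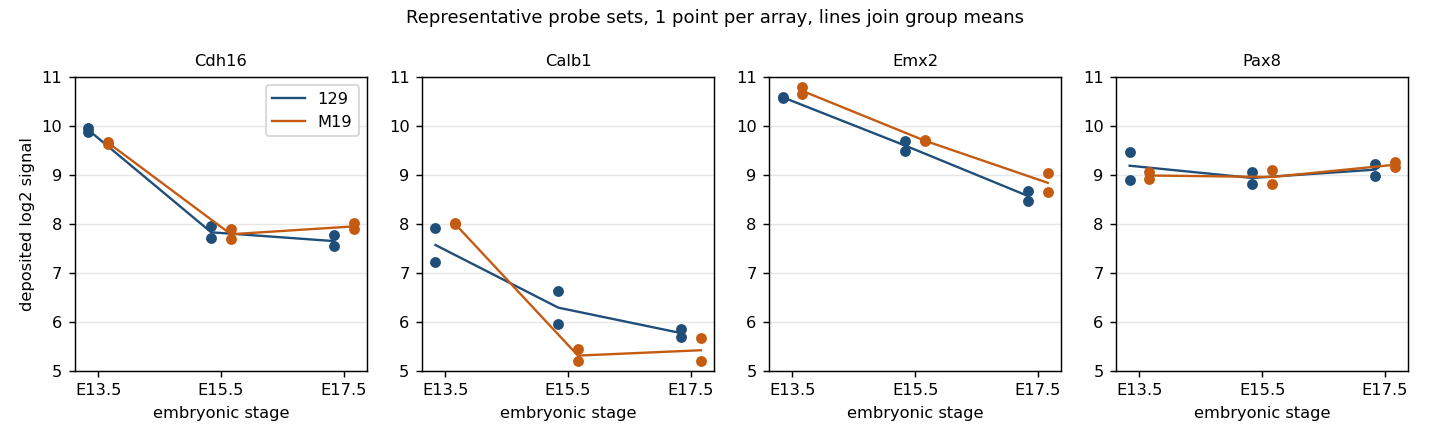
Deposited log2 signal (y axis) of the 4 measured genes by embryonic stage (x axis), with 1 point per array and lines through the group means of 129 and M19. Cdh16 and Calb1 drop between E13.5 and E15.5. Cdh16 and, in M19, Calb1 then level off, while Calb1 in 129 has a late step of -0.52 that was not called. Emx2 drops in both steps, and Pax8 stays between 8.81 and 9.48.

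Emx2 lies on chromosome 19 at chr19:59458690-59465357 (GRCm38.p6), the chromosome that M19 carries from MOLF. Pax8 lies at chr2:24420551-24475599 on the minus strand. Of the measured genes these are the transcription factors, 1 that fell and 1 that was not called, so their RefSeq promoter sequences are set side by side. Each is the 250 bases before the annotated gene start, 5′ to 3′ on the strand of the gene, from the reference genome and not from 129 or MOLF. Emx2 is read from chr19:59458440-59458689 on the plus strand and Pax8 from chr2:24475600-24475849 on the minus strand. Capitals mark matches to GGGCGG, on either strand.
Emx2: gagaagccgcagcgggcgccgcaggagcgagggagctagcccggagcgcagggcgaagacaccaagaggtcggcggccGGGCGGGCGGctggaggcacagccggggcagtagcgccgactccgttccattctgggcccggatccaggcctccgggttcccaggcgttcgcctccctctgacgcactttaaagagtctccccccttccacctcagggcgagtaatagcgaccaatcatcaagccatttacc
Pax8: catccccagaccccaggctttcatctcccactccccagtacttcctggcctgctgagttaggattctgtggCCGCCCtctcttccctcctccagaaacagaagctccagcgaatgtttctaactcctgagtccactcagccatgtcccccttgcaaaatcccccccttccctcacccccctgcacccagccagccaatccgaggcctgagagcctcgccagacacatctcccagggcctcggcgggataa
The Emx2 window held 24 CG dinucleotides and 2 overlapping GGGCGG matches, 172 and 168 bases before the start. The Pax8 window held 6 CG dinucleotides and 1 match, as the reverse complement CCGCCC, 179 bases before the start. Over 32851 promoter windows of the same length the median was 6 CG dinucleotides, and 32.7% held GGGCGG or its complement. The motif TATAAA, searched on both strands, was in neither window and in 12.4% of all windows. The same held for GTTAAT, found in 6.43% of all windows. For TAATTA, also in neither, the share of all windows was 4.84%. The promoter sequences used here covered Emx2, Pax8 and Pax2 among the 5 genes, and not Cdh16 or Calb1.

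Emx2 RNA stepped down at each stage. At E13.5 its log2 signal was 10.58 and 10.6 on the 129 arrays and 10.79 and 10.65 on the M19 arrays. At E15.5 it was 9.50 and 9.70 in 129 and 9.69 and 9.71 in M19. At E17.5 it was 8.68 and 8.46 in 129 and 8.65 and 9.04 in M19. All 4 arrays of a stage lay above all 4 arrays of the next stage, and M19 had the higher mean at each stage. In 129 the early step was -1.0 ± 0.15 (SE, n = 2 and 2, 1.99-fold lower, limma adjusted p = 0.0025) and the late step -1.03 ± 0.15 (2.04-fold lower, adjusted p = 0.0052). In M19 these steps were -1.01 ± 0.15 (2.02-fold lower, limma adjusted p = 0.002) and -0.86 ± 0.15 (1.82-fold lower, adjusted p = 0.014). The total fall from E13.5 to E17.5 averaged over strains was 3.86-fold (-1.95 ± 0.10, limma adjusted p = 3.7e-07).

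The late step of Emx2 lost its call within a strain when certain single arrays were left out, mostly at a similar size. In 129 it was -0.93 without replicate 2 at E15.5 and -0.92 without replicate 2 at E17.5 (limma adjusted p = 0.051 and 0.081). In M19 it was -0.87 or -0.85 without replicate 1 or 2 at E15.5 (limma adjusted p = 0.14 and 0.094), and -0.66 without replicate 1 at E17.5 (adjusted p = 0.13). Averaged over strains the late step was -0.94 ± 0.10 (limma adjusted p = 0.00047), and it was called with any 1 array left out.

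Although Emx2 lies on the MOLF chromosome of M19, its strain differences were small. M19 minus 129 was 0.12 at E13.5, 0.11 at E15.5 and 0.27 at E17.5, each ± 0.15 (SE). Averaged over stages it was 0.17 ± 0.09, with a 95% interval of -0.02 to 0.35 (limma adjusted p = 1). At E13.5 both M19 arrays lay above both 129 arrays, while at E15.5 and E17.5 the strains overlapped. For comparison, 6.24% of the 609 measured genes of chromosome 19 were called in the strain comparison averaged over stages. Emx2 has 1 probe set, so no second one checks its strain differences. Whether MOLF sequence under the probes affects the signal of chromosome 19 genes was not tested.

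Emx2os, the antisense RNA gene next to Emx2, was looked at after its values were seen. It lies at chr19:59425104-59458635 and does not overlap Emx2 in this annotation. Its log2 signal at E13.5 was 8.47 and 8.42 in 129 and 8.86 and 8.82 in M19. At E15.5 it was 8.1 and 8.19 in 129 and 8.37 and 8.43 in M19. At E17.5 it was 8.29 and 8.09 in 129 and 8.39 and 8.36 in M19. The M19 arrays were higher at every stage without overlap, by 0.28 ± 0.06 averaged over stages, which was not called (limma adjusted p = 0.18). Emx2os also has 1 probe set, and the part of MOLF sequence in this difference was not tested. From E13.5 to E17.5 Emx2os fell by 0.36 on the log2 scale averaged over strains (± 0.08, limma adjusted p = 0.0072).

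Pax8 had no called stage or strain difference. Its log2 signal at E13.5 was 9.48 and 8.90 in 129 and 9.06 and 8.92 in M19. At E15.5 it was 9.06 and 8.81 in 129 and 8.82 and 9.10 in M19. At E17.5 it was 8.99 and 9.22 in 129 and 9.27 and 9.16 in M19. The groups overlapped except that M19 at E17.5 lay above M19 at E13.5 and E15.5 and above 129 at E15.5. The highest value came from replicate 1 of 129 at E13.5, the array with the high 18S signal. The early step was -0.25 in 129 and -0.03 in M19, and the late step 0.17 and 0.25, each ± 0.19 (SE). Over the span from E13.5 to E17.5 the averaged difference was 0.07 ± 0.13, with a 95% interval of -0.23 to 0.36, so a fall of the size seen for Emx2 lies outside it. Without the array of high 18S signal the span was 0.21 (limma adjusted p = 0.16). A dimmer Pax8 probe set lay between 6.86 and 7.16 on all arrays and was called in no comparison either. Without a call of presence, how far the signal of either probe set lies above background is unknown.

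Cdh16, at chr8:104601915-104624396, fell in the early step and was called in no late step. At E13.5 the log2 signal was 9.96 and 9.88 in 129 and 9.67 and 9.64 in M19. At E15.5 it was 7.96 and 7.71 in 129 and 7.69 and 7.89 in M19. At E17.5 it was 7.77 and 7.54 in 129 and 8.01 and 7.89 in M19. The 4 arrays at E13.5 lay above all later arrays, which ran from 7.54 to 8.01. Those later signals lay below the array medians of 8.1 to 8.27. Without a call of presence, how far they lie above background is unknown, and so is its part in the size of the fall. In order of their means the groups were 129 and M19 at E13.5, then M19 at E17.5, 129 at E15.5, M19 at E15.5 and 129 at E17.5, and each of the last 4 overlapped its neighbour in this order. The early step was -2.08 ± 0.13 in 129 (SE, n = 2 and 2, 4.23-fold lower, limma adjusted p = 7e-06). It was -1.87 ± 0.13 in M19 (3.65-fold lower, limma adjusted p = 1.3e-05). The late step was -0.18 ± 0.13 in 129 and 0.16 ± 0.13 in M19, and neither was called (limma adjusted p = 0.64 and 0.59). Both early calls held with any 1 array left out.

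The strain order of Cdh16 differed between stages. At E13.5 both M19 arrays lay below both 129 arrays, with a difference of -0.26 ± 0.13 and a 95% interval of -0.56 to 0.04. At E17.5 both M19 arrays lay above, by 0.29 ± 0.13. At E15.5 the strains overlapped, with a difference of -0.05. Neither outer difference was called, nor was the strain by stage interaction (limma F test, unadjusted p = 0.041, adjusted p = 1).

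Calb1, at chr4:15881264-15906709, also fell in the early step, and all its signals lay below the array medians. At E13.5 the log2 signal was 7.23 and 7.91 in 129 and 8.00 and 8.01 in M19. At E15.5 it was 5.95 and 6.64 in 129 and 5.44 and 5.19 in M19. At E17.5 it was 5.85 and 5.70 in 129 and 5.19 and 5.66 in M19. All arrays at E13.5 lay above all later arrays. The order of the means was M19 and 129 at E13.5, 129 at E15.5, 129 at E17.5, and M19 at E17.5 and E15.5, of which neighbours only the last pair overlapped. No call of presence was used, so how far the later values lie above background is unknown. In 129 the early step was -1.27 ± 0.26 (SE, n = 2 and 2, 2.42-fold lower, limma adjusted p = 0.018). In M19 it was -2.69 ± 0.26 (6.46-fold lower, limma adjusted p = 0.00011). The late step was -0.52 in 129 and 0.11 in M19, each ± 0.26, and neither was called.

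The Calb1 step in 129 rests on single arrays. Without replicate 2 of 129 at E13.5 it was -0.93 (limma adjusted p = 0.073), and without replicate 1 of 129 at E15.5 it was -0.92 (adjusted p = 0.13). Without replicate 1 at E13.5, the array of high 18S signal, it was -1.61 (limma adjusted p = 0.0092). The step in M19 was called with any 1 array left out.

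At E15.5 both M19 arrays lay below both 129 arrays for Calb1, by -0.98 ± 0.26, with a 95% interval of -1.55 to -0.41. This was not called (limma unadjusted p = 0.0032, adjusted p = 0.24). The same 129 arrays carried the high epidermis, muscle and cartilage signal given above, and its part in this difference and in the 129 steps of all 3 genes was not tested. The M19 steps do not use those arrays, and with both of them left out of the fit the 3 genes were again called lower in the M19 early step and Emx2 in the late one. At E13.5 and E17.5 the Calb1 strain difference was 0.44 ± 0.26 and -0.35 ± 0.26. The early step in M19 minus that in 129 was -1.42 ± 0.37, and the interaction was not called (limma F test, unadjusted p = 0.0092, adjusted p = 0.85).

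**Figure D2:**
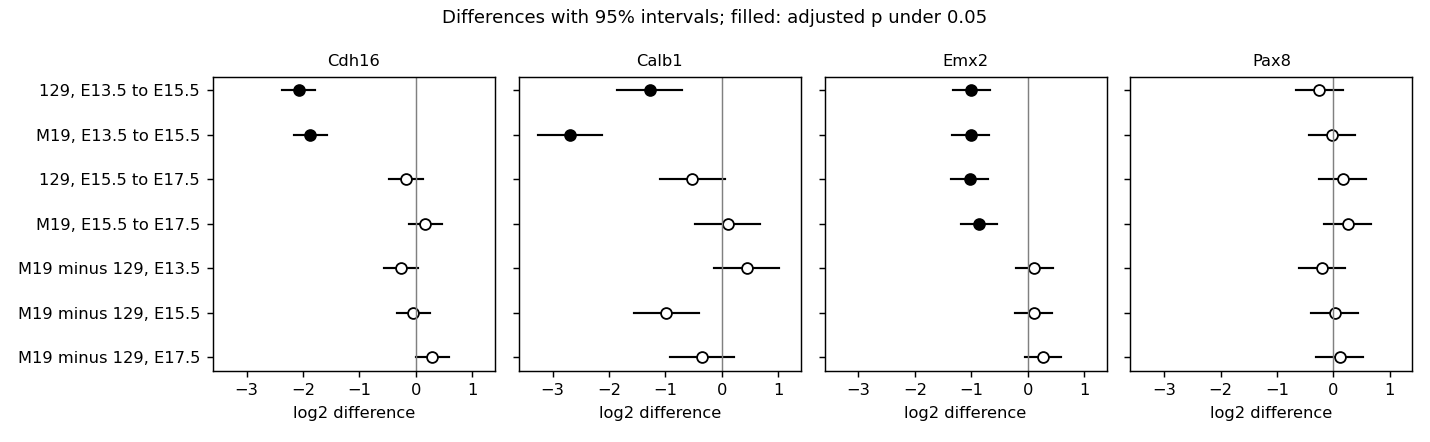
Log2 differences (x axis) with 95% intervals of the limma fit for the 4 stage steps and 3 strain comparisons (y axis) of each measured gene. Filled points passed an adjusted p of 0.05: the early step of Cdh16, Calb1 and Emx2 in both strains and the late step of Emx2 in both, with no filled point among the strain comparisons.

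The dimmer probe sets of Calb1 did not all show the fall. Probe set 1456934_at fell by 1.18 on the log2 scale in the early step averaged over strains (± 0.26, limma adjusted p = 0.013) and by 1.59 in M19 (± 0.37, adjusted p = 0.029), at signals of 4.64 or less. In 129 its early step was -0.77 ± 0.37 and was not called (limma adjusted p = 0.37). Probe set 1458836_at lay between 6.15 and 6.58, and its averaged early step was -0.11 ± 0.08 (limma adjusted p = 0.56). Probe set 1448738_at lay between 5.23 and 5.78, with an averaged early step of -0.08 ± 0.09 (limma adjusted p = 0.74). The brightest probe set was thus called in both strains, 1 of the 3 dimmer ones in M19 and averaged over strains, and the other two in neither.

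**Figure D3:**
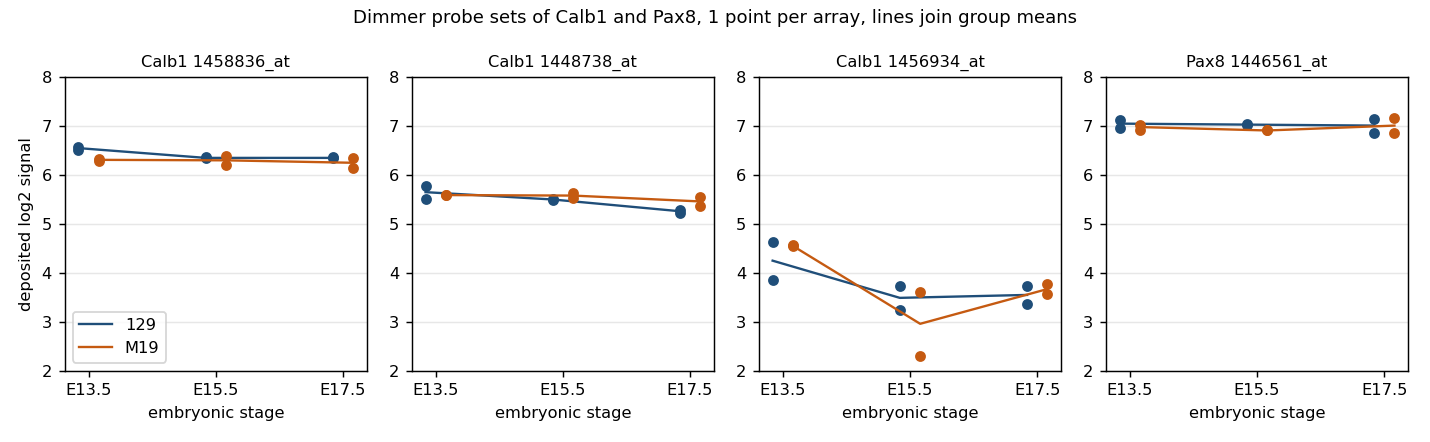
Deposited log2 signal (y axis) of the 3 dimmer Calb1 probe sets and the dimmer Pax8 probe set by stage (x axis), 1 point per array, with lines through the group means. Of these, 1456934_at drops after E13.5, and the others change by little over the stages.

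No measured gene of the 4 was called between the strains with limma at E13.5, E15.5 or E17.5 or averaged over stages, where 0.033%, 0.682%, 0.0934% and 0.462% of all genes were called. At an unadjusted p under 0.05 the counts were 0, 1, 0 and 0 of 4, the 1 being Calb1 at E15.5. The interaction had 0 calls of 4 against 0.203% of all genes, and 2 of 4 had an unadjusted p under 0.05, Calb1 and Cdh16. Averaged over stages, the strain difference of Calb1 was -0.30 ± 0.15.

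Across the 12 arrays, Pearson's r was 0.89 between Cdh16 and Calb1, 0.86 between Cdh16 and Emx2, 0.84 between Calb1 and Emx2, and -0.17 to 0.16 between Pax8 and the other 3. These arrays share stages and may share pools, so the values are a description. Among 9094 brighter genes, the 5 most like Cdh16 over the 12 arrays were Podxl, Ecm1, Tbx3, Ano1 and Gata2, with r from 0.978 to 0.99. The 5 most like Emx2 were Hmga2, Unc5c, Spon1, Tpbg and Myrf, with r from 0.987 to 0.991. Those most like Calb1 were Pdgfc, Pik3r1, Thsd4, Arhgap28 and Sulf1, with r from 0.967 to 0.979. For Pax8 they were Atg13, Gart, Bdh2, Tead3 and Unc45a, with r from 0.942 to 0.967. When the 6 group means were used in place of arrays, 2, 1, 1 and 0 of these 5 were again among the top 5 for Cdh16, Emx2, Calb1 and Pax8.

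Of 14 duct epithelium genes, all measured, 6 were called lower from E13.5 to E15.5 in 129 and 8 in M19, where 1.84% and 1.66% of all genes were called lower. None was called higher, against 4.46% and 5.74% of all genes. The list's median log2 difference was -0.55 and -0.69 against -0.03 and 0.05 over all genes. Epcam, Cdh6, Cldn3, Cldn4, Muc1 and Crb3 were called in neither strain, with differences from -0.44 to 0.12. Krt18, a keratin of simple epithelia, was lower by -1.78 ± 0.12 and -1.90 ± 0.12 (SE) in 129 and M19 (limma adjusted p = 8.6e-06 and 4.9e-06). Cldn7, a tight junction protein, was lower by -1.43 ± 0.12 and -1.34 ± 0.12 (limma adjusted p = 5e-05 and 7.4e-05). Krt7, Krt8 and Cdh1 were also called lower in both strains, and Krt19 and Npnt in M19. The list also holds Itga8, an integrin gene known from nephric mesenchyme and not an epithelial marker, which had its largest fall. Itga8 went from 11.46 and 11.53 to 9.18 and 9.66 in 129 and from 11.73 and 11.67 to 9.68 and 9.39 in M19 (limma adjusted p = 3.2e-05 and 2.2e-05).

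In the late step 2 of the 14 were called higher in M19, against 1.45% of all genes, and 2 lower, against 1.79%. Krt18 rose in M19, by 0.83 ± 0.12 (limma adjusted p = 0.0052), and Krt8 by 0.58 ± 0.11 (adjusted p = 0.022). Cdh1, the E-cadherin gene, which germ cells also express, fell by 2.74 in 129 (± 0.21, limma adjusted p = 6.7e-05) and by 1.51 in M19 (± 0.21, adjusted p = 0.0041). At E17.5 Cdh1 was 6.79 and 6.84 in 129 and 8.1 and 8.47 in M19. The M19 arrays lay above without overlap, by 1.47 ± 0.21, the only called strain difference at that stage among the 64 genes of the 5 lists (limma adjusted p = 0.027). Epcam, a general epithelial adhesion gene, lay between 9.43 and 10.05 on all arrays and was called in no step.

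Nephric and duct transcription factors split. Of 15 measured of 17 listed, 3 were called lower and 1 higher in the early step in 129, and 5 lower and none higher in M19, with medians of -0.04 and -0.18. Over all genes, 1.84% were called lower and 4.46% higher in this step in 129, and 1.66% and 5.74% in M19. Gata3, a zinc finger factor of the nephric duct, was 7.0 and 7.37 at E13.5 in 129 and 6.17 and 6.42 at E15.5. In M19 it went from 7.23 and 7.31 to 5.49 and 5.12. It fell in both strains (-0.89 ± 0.17 and -1.96 ± 0.17, limma adjusted p = 0.01 and 3.9e-05). Hoxa9, a homeobox gene of the posterior body and ducts, fell by 1.69 and 2.70 (± 0.21 each, limma adjusted p = 0.00075 and 2.2e-05). Wt1, a zinc finger factor of gonad and kidney, fell by 0.59 and 0.48 (± 0.11 each, limma adjusted p = 0.013 and 0.035). Mecom and Hoxa10 were called lower in M19, and Hoxd11 higher in 129.

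Gata3 and Hoxa10 differed between the strains at E15.5, where 0.682% of all genes were called. Gata3 was lower in M19 by -0.99 ± 0.17 (limma adjusted p = 0.025) and Hoxa10 by -2.27 ± 0.35 (adjusted p = 0.017). The 129 arrays of this comparison are those with high epidermis, muscle and cartilage markers, whose part was not tested. In the late step, Gata3, Hoxa9 and Hoxa10 were called lower in 129, against 1.24% of all genes, and none of the list was called lower in M19. The 129 steps of these genes and of Hoxd11 use the same 129 arrays at E15.5, whose part was not tested there either. Osr1, an early factor of nephric mesoderm, was called higher in M19 in the late step (1.18 ± 0.18, limma adjusted p = 0.007).

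Of 17 duct signalling genes measured of 18, Wnt4 and Amhr2 were called lower in the early step in both strains, and Spry1 in M19. Fgf8 alone was called higher, in both strains. Of all genes, 1.84% were called lower in this step in 129 and 1.66% in M19, and 4.46% and 5.74% higher. The list's median difference was -0.09 in 129 and -0.1 in M19, against -0.03 and 0.05 over all genes. Wnt4, a ligand of gonad and tubule formation, fell by 0.67 in 129 and 0.44 in M19 (± 0.11 each, limma adjusted p = 0.0057 and 0.046). Amhr2, the receptor for anti-Müllerian hormone, fell by 0.81 and 0.54 (± 0.10 each, limma adjusted p = 0.00096 and 0.011). Fgf8, a fibroblast growth factor, rose by 0.86 and 0.97 (± 0.13 each, limma adjusted p = 0.003 and 0.0012). The GDNF receptor genes Ret and Gfra1, which act in duct budding, were not called in these steps.

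Of 13 genes of mature kidney tubules and glomeruli measured of 17, 3 were called in the early step in 129 and 2 in M19. In 129 these were 2 higher and 1 lower, where 4.46% of all genes were called higher and 1.84% lower. In M19 they were 1 higher and 1 lower, against 5.74% and 1.66% of all genes. Podxl, a sialomucin of podocytes that is also the gene most like Cdh16, fell in both strains (-0.90 and -0.88, ± 0.10 each, limma adjusted p = 0.00045 and 0.00054). Cubn, a tubular uptake receptor, rose in both (0.76 and 0.83, ± 0.14 each, limma adjusted p = 0.0095 and 0.0045). The water channel gene Aqp1 rose in 129 (1.06 ± 0.17, limma adjusted p = 0.0037). It was lower in M19 than in 129 at E15.5 (-1.02 ± 0.17, limma adjusted p = 0.022), again against the 129 arrays that stand apart. The median difference of the list was -0.03 in 129 and -0.1 in M19.

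Close relatives of the members had few calls. Pax5, Emx1, Cdh17, Calb2 and S100g had no call within a strain in the early or the late step (limma). At an unadjusted p under 0.05 the counts were 0 of 5 in both early steps, 1 of 5 in the 129 late step and 2 of 5 in the M19 late step. At the adjusted threshold, 4.46% and 5.74% of all genes were called higher in the early step in 129 and M19. Those called lower were 1.84% and 1.66% in that step, and 1.24% and 1.79% in the late step. Averaged over strains, Emx1 rose from E13.5 to E17.5 by 0.49 ± 0.11 (limma adjusted p = 0.0084), while Emx2 fell. Cdh17 rose by 0.46 ± 0.10 (limma adjusted p = 0.0059), while Cdh16 fell. Calls were common over this span, with 10122 of the 45037 probe sets tested called in either direction. The calbindin family gene Calb2 lay between 8.25 and 8.59 on all arrays.

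**Figure D4:**
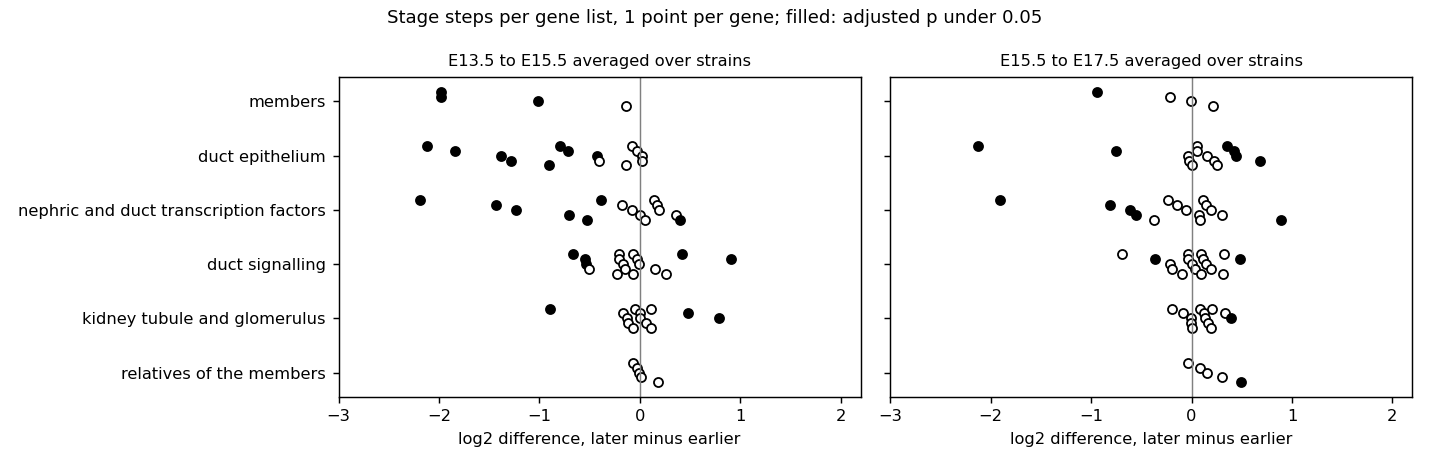
Log2 differences (x axis, later minus earlier stage, averaged over strains) of single genes in the 4 measured members and the 5 lists (y axis), for both steps. Filled points passed a limma adjusted p of 0.05: in the early step all of those of the members and of the duct epithelium list lie below 0, and no relative is filled there.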

How the data were processed

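The deposited values of 45101 probe sets on 12 arrays were taken as log2 signal; their summary method, background correction, normalization and log base are not given in the sources used here. Arrays have no read depth, so their number sets the precision. Without 64 control probe sets, limma 3.58.1 in R 4.3.3 fitted 6 group means (lmFit, eBayes, no block) to 45037 probe sets, with 6 residual and 4.82 prior degrees of freedom, in two-sided tests with Benjamini-Hochberg adjustment over all of them. The platform annotation gives 1 gene for 34945 probe sets, several for 932 and none for 9160. RefSeq (GRCm38.p6) matched 34741 of the single-gene probe sets, and the others kept the symbol of the platform annotation. Together they gave 18193 genes, each shown by its brightest probe set, and shares of genes called refer to these. A positive difference means higher in M19 or at the later stage. Summed marker levels are log2 of summed linear signals. The fit was tested on simulated data. Tables and plots used pandas 2.3.3 and matplotlib 3.10.9 in Python 3.11.15.

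The 5 genes, the lists and the tests were chosen with earlier results of these data known. Named are the 5 genes, called genes of a list (at most 6 per list and comparison, largest first) and the 5 genes most like each member among those above the median mean signal; Upk3b and genes named as not called were added from the lists after their values were seen. Alternatives covered scaling (quantiles, medians), 2 dim-signal filters, another variance model, 2 gene summaries, the next brightest probe set, a replicate block, the compared arrays alone and each array left out.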

Additional observations from a re-analysis of the deposited data

How the results depend on the processing

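No called difference of Cdh16, Calb1, Emx2 or Pax8 reversed under any alternative run. Of the values with 1 array left out, 569 kept their side of the threshold and 7 lost a call. Of those with other processing or with both 129 E15.5 arrays left out, 422 kept their side and 2 lost a call. With the compared arrays alone, 1 of the 4 genes was called in the 129 early step instead of 3, since Calb1 (adjusted p = 0.18) and Emx2 (0.063) were lost; that limma fit holds 4 arrays. With 1 array left out, the genes called ranged from 2 to 3 in the 129 early step, 0 to 1 in the late step of 129 and 0 to 1 in that of M19. The next brightest Calb1 probe set lost all 4 Calb1 calls, with differences of -0.20, -0.01, -0.11 and -0.13. Both filters on dim probe sets left Calb1 out, so it has fewer values, and counts of called genes under these filters do not include it.

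The replicate numbers come from the sample titles. Deviations of same-numbered arrays from their group means correlated above 0.1 in 6 of 15 pairs of groups (r from -0.373 to 0.539). The r of 129 at E15.5 was 0.539 with 129 at E13.5 and 0.538 with M19 at E17.5. Whether same-numbered arrays share a batch was not tested. The replicate block changed no count of called genes among the 4 (3 in each early step, 1 in each late step), and probe sets called in the 129 early step were 2055 with it and 2072 without. Leaving out both 129 E15.5 arrays was chosen after seeing the data.

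Counts over all probe sets moved more. For the 129 early step, 2072 probe sets were called, 1230 to 2739 with 1 array left out and 443 to 2501 otherwise. For the M19 early step it was 2461, 938 to 3242 and 1659 to 5549, and for the strain difference at E15.5 258, 84 to 351 and 146 to 313. Scaling by quantiles or centring shifted the median difference by at most 0.057.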
